A study of Mus musculus with 6 samples.

Results

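The comparison sets laser-captured interzone, the band of cells that will become a joint, against laser-captured growth plate cartilage beside it, both from control mouse embryos. The members are all genes on the array with a usable reading in both tissues: 16316 of 19505 named genes carried the scanner software's flag for a signal well above background on the interzone control array and on the growth plate control array. Both groups were wild type C57BL/6 embryos at E14.5 (E for embryonic day) and came from the autopod, the future hand or foot. Each group was read on 1 array of the 6 in the series, and both arrays lay on the same slide. Per the labels' protocols, 2 control and 2 littermate mutant embryos were sectioned and the cDNA made from each capture was amplified by PCR. The labels do not state how many cells, or which embryos, stood behind an array.

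The interdigital control array and the mutant arrays are used only to set values beside the control pair. The mutant genotype is Tgfbr2Prx1KO, by its name a deletion of the TGF-beta receptor gene Tgfbr2 by a Cre under the Prx1 enhancer, which is active in limb mesenchyme and therefore in the precursors of both tissues. Groups were taken from the titles, because the description of the growth plate control sample, and of every sample other than the interzone control, named irradiated human blood.

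Synovial joints form where part of a continuous cartilage condensation stops differentiating as cartilage. The cells there, the interzone, switch on the growth factor gene Gdf5 and secrete antagonists and hyaluronan, while the neighbouring chondrocytes fill their surroundings with collagens and proteoglycans and mature toward hypertrophy under the control of Indian hedgehog and parathyroid hormone-related protein. Both tissues descend from the same limb mesenchyme, so interzone cells can still hold cartilage transcripts at this stage.

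Values are log2 signals relative to the 75th percentile of the same array, called levels, and a difference is the interzone level minus the growth plate level. Positive differences are higher in interzone, and 1 log2 unit is 2-fold. With 1 array a side there is no replicate check, no test and no p-value, and the scanner's own signal error, about 0.20 log2 for a bright gene's difference, covers the spot reading only. A 2-fold difference was common: 4117 genes, 25.2% of those measured, were at least 2-fold higher in interzone, and 3828, 23.5%, at least 2-fold higher in growth plate. The median difference of all measured genes was -0.10. A gene that was well above background in 1 tissue and not in the other has only a bound, written as at least N-fold, and there were 1374 such genes for interzone and 254 for growth plate.

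Some features of the arrays touch every result. The growth plate control array was the dimmest of the 6, with a median signal of 103 units against 349 on the interzone control array, and 72.3% against 83.1% of its spots were well above background. Of the 4117 genes higher in interzone, 1686 (41.0%) read lowest of all 6 arrays, by 2-fold or more, on the growth plate control array, and 560 (13.6%) read highest, by 2-fold or more, on the interzone control array. Of the 3828 genes higher in growth plate, 1828 (47.8%) read highest of the 6 arrays by 2-fold or more on that array. Among 2914 genes past 2-fold that had another measured probe, the next probe went the same way for 1723 (59.1%) and was itself past 2-fold in that direction for 1158 (39.7%). Bright genes leaned to growth plate: in the brightest of 4 equal groups of genes 31.0% were at least 2-fold higher in growth plate and 7.36% in interzone, with a median of -0.58, against 13.9% and 30.8% in the dimmest. In the second-dimmest group 19.2% were at least 2-fold higher in growth plate and 39.5% in interzone. The number of arrays limits the precision, and fewer cells of a type in a capture cannot be told apart from less RNA per cell.

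The choice of scaling moves all differences together. Dividing by the array median, as in the deposited table, lowered every difference by 1.22 log2 and the median of all genes to -1.33, so that interzone-higher values under 1.22 change sign there. Of the genes past 2-fold, 51.8% were higher in interzone with the 75th percentile, 18.1% with the array median, 37.1% after quantile normalization and 63.7% with the percentile taken over probes detected on both arrays, which raised every difference by 0.33.

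The marker genes followed the labels. Gdf5, which marks the interzone, stood at 4.33 in interzone and 2.17 in growth plate, a 4.46-fold difference, and at 1.20 in the interdigital control. The interzone control array was the highest of all 6 arrays for Gdf5, which had a single measured probe. Col2a1, the main fibril-forming collagen of cartilage, stood at 6.55 in interzone and 7.96 in growth plate, 2.65-fold higher in growth plate, and at 5.81 in the interdigital control. All 3 measured probes of Col2a1 were higher in growth plate, with differences from -2.38 to -1.41. Col2a1 was above the 75th percentile on all 6 arrays, so the tissues differed in its level and not in whether it was read.

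**Figure D1:**
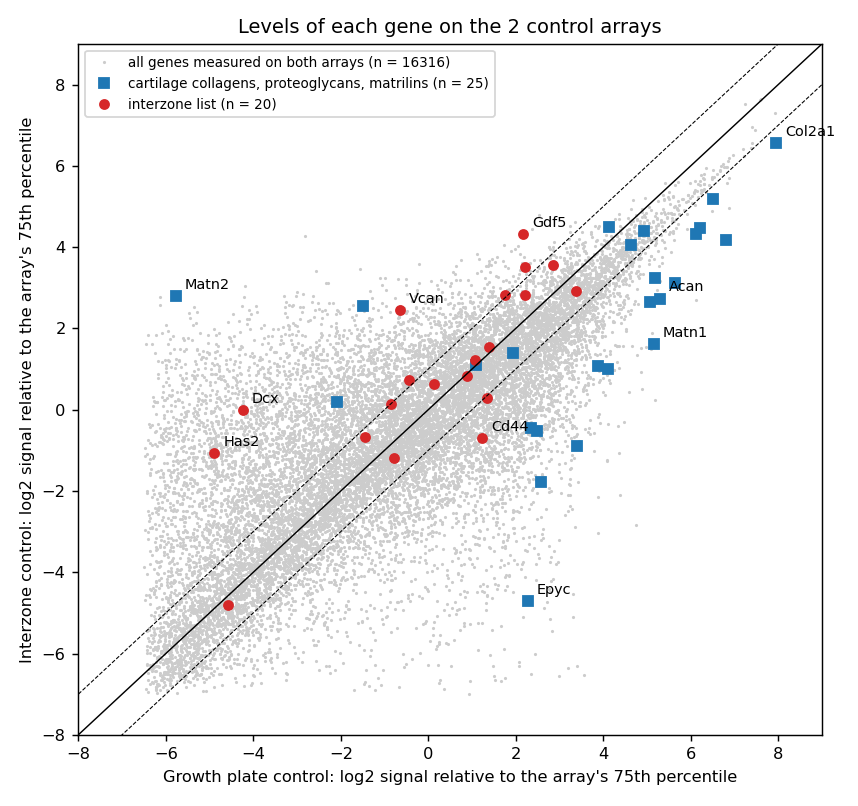
Each point is a gene measured on both control arrays, with its log2 level (relative to the array's 75th percentile) in growth plate on the x axis and in interzone on the y axis; dashed lines mark 2-fold. The cartilage collagens and most cartilage proteoglycans lie below the diagonal, Gdf5, Vcan, Has2 and Dcx lie above it, and Matn2 stands far above it.

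Marker genes of other cell types read differently in the captures. Over all genes 25.2% were at least 2-fold higher in interzone and 23.5% in growth plate. Of 12 measured epidermis markers, 9 were at least 2-fold higher in growth plate and 1 in interzone (median difference -2.16): the keratin gene Krt10 read -3.04 in interzone and 3.88 in growth plate, and Krt1 -0.57 and 3.80, although the other probe of Krt1 went the opposite way. All 3 mutant arrays read above 4 for both keratins, so the control arrays of interzone and interdigital tissue were the low ones. The epidermal factor Trp63 and the cadherin Cdh1 were well above background in interzone only. Of 4 list members past 2-fold with other measured probes, 1 had all of them in the same direction. The summed level of the list was 4.70 in interzone and 6.74 in growth plate on the log2 scale. Of 22 measured skeletal muscle markers, 10 were higher in growth plate and none in interzone, among them the myogenic factor Myog (-3.78 and 1.82) and the myosin light chain Mylpf (-0.31 and 4.46). The summed level was 4.55 and 6.4, and Myf5 was not well above background on either array.

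The vessel and blood lists went the other way or were mixed, beside 25.2% of all genes higher in interzone and 23.5% in growth plate. Of 13 endothelial genes, 6 were higher in interzone, among them the tight junction gene Cldn5 (1.85 and -1.20), 3 were higher in growth plate, and the receptors Kdr and Tie1 were well above background in interzone only, at least 12.3-fold and 81.3-fold higher. Of 17 macrophage and leukocyte genes, 6 were higher in interzone and 5 in growth plate, with Ptprc at 0.78 and -5.53 and Laptm5 at -4.23 and 2.80. The mast cell genes Hdc, which makes histamine, and Cpa3 were also much higher in growth plate: Hdc read -6.51 and 2.34, and Cpa3 was at least 789-fold higher there. For Hdc the other 4 arrays read between 0.48 and 1.29, which leaves the interzone control array as the lowest by a wide margin. Of 11 erythroid genes, 4 were higher in interzone and none in growth plate, and of 12 nerve and Schwann cell genes, 1 and 3. The part of such cells in the differences that follow was not tested.

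Cartilage collagen genes were higher in growth plate as a group. All 8 measured cartilage collagens were at least 2-fold higher in growth plate, with a median difference of -1.87 against -0.10 for all genes and 23.5% of all genes called in that direction. The median stayed between -3.09 and -1.20 over the 5 alternative scalings, and in the 4 members with another measured probe every probe was higher in growth plate. On all 8 members the growth plate control array was the highest of the 6 arrays by 2-fold or more.

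The partners of Col2a1 in the cartilage fibril followed it. Col11a2, a minor chain of the cartilage fibril, read 1.0 in interzone and 4.10 in growth plate (8.55-fold), and Col11a1 read 3.23 and 5.18 (3.85-fold). The type IX collagen genes, whose product coats the fibril surface, read 3.12, 4.32 and 4.46 in interzone (Col9a1, Col9a2 and Col9a3) and 5.65, 6.12 and 6.22 in growth plate, which is 5.78-fold, 3.47-fold and 3.38-fold. Col27a1, a fibrillar collagen of developing cartilage, read 5.18 and 6.52. All of these were above the 75th percentile on the interzone array as well, so cartilage fibril transcripts were read in both captures at different levels.

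Proteoglycans and matrilins split by member. Of 17 measured, 9 were at least 2-fold higher in growth plate and 3 in interzone, with a median of -2.42. Acan, the core protein of the large cartilage proteoglycan, read 2.73 in interzone and 5.30 in growth plate (5.95-fold), and its link protein Hapln1 read 1.07 and 3.87. The matrilin genes Matn1 and Matn3, which encode linkers between collagen and proteoglycan, read 1.62 and -0.90 in interzone against 5.16 and 3.41 in growth plate (11.7-fold and 19.8-fold). The leucine-rich proteoglycan Epyc read -4.71 and 2.27 (126-fold), with the interzone control array also the lowest of the 6. Cnmd, which encodes the anti-angiogenic protein chondromodulin, read 2.65 and 5.07, and Comp, a collagen-binding pentamer, 4.18 and 6.80. On each of the 9 genes higher in growth plate the growth plate control array was the highest of the 6 by 2-fold or more.

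The 3 exceptions were Matn2, Fmod and Otor. Matn2, a matrilin found in many connective tissues, read 2.80 in interzone and -5.78 in growth plate, while the other 4 arrays read between 1.70 and 2.42, so it was the growth plate control array that stood apart. Fmod, the collagen-binding fibromodulin, read 2.55 and -1.49. Otor read 0.19 and -2.08. Each of the 3 had a single measured probe.

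The broader growth plate chondrocyte list shares most of its genes with the collagen and proteoglycan lists and had the same direction. Of 25 measured genes, 18 were at least 2-fold higher in growth plate and 2 in interzone, with a median of -1.84 that stayed between -3.06 and -1.35 over the alternative scalings. Snorc, a small chondrocyte proteoglycan, read -0.44 in interzone and 2.35 in growth plate, and Wwp2, a ubiquitin ligase induced by SOX9, 4.88 and 6.48. The 2 genes on the interzone side were Sox5 and the sulfate transporter Slc26a2 (-2.49 and -5.51), whose loss causes chondrodysplasia.

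Genes of chondrocyte maturation were also on the growth plate side. Of 13 measured prehypertrophic and hypertrophic genes, 8 were at least 2-fold higher in growth plate and 2 in interzone (median -2.39). Col10a1, the collagen of hypertrophic cartilage, read -0.52 in interzone and 2.49 in growth plate (8.11-fold). The channel gene Panx3 was well above background in growth plate and not in interzone, at least 3050-fold higher, and the osteopontin gene Spp1 was 5.95-fold higher. The 2 genes on the interzone side were the angiogenic factor Vegfa (1.46 and -5.29), whose 3 measured probes disagreed in direction, and the runt factor Runx3 (1.36 and -0.25). The late collagenase gene Mmp13 stayed under 2-fold at -4.29 and -5.12, and Ibsp, a late bone matrix gene of the list, was well above background in interzone only.

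**Figure D2:**
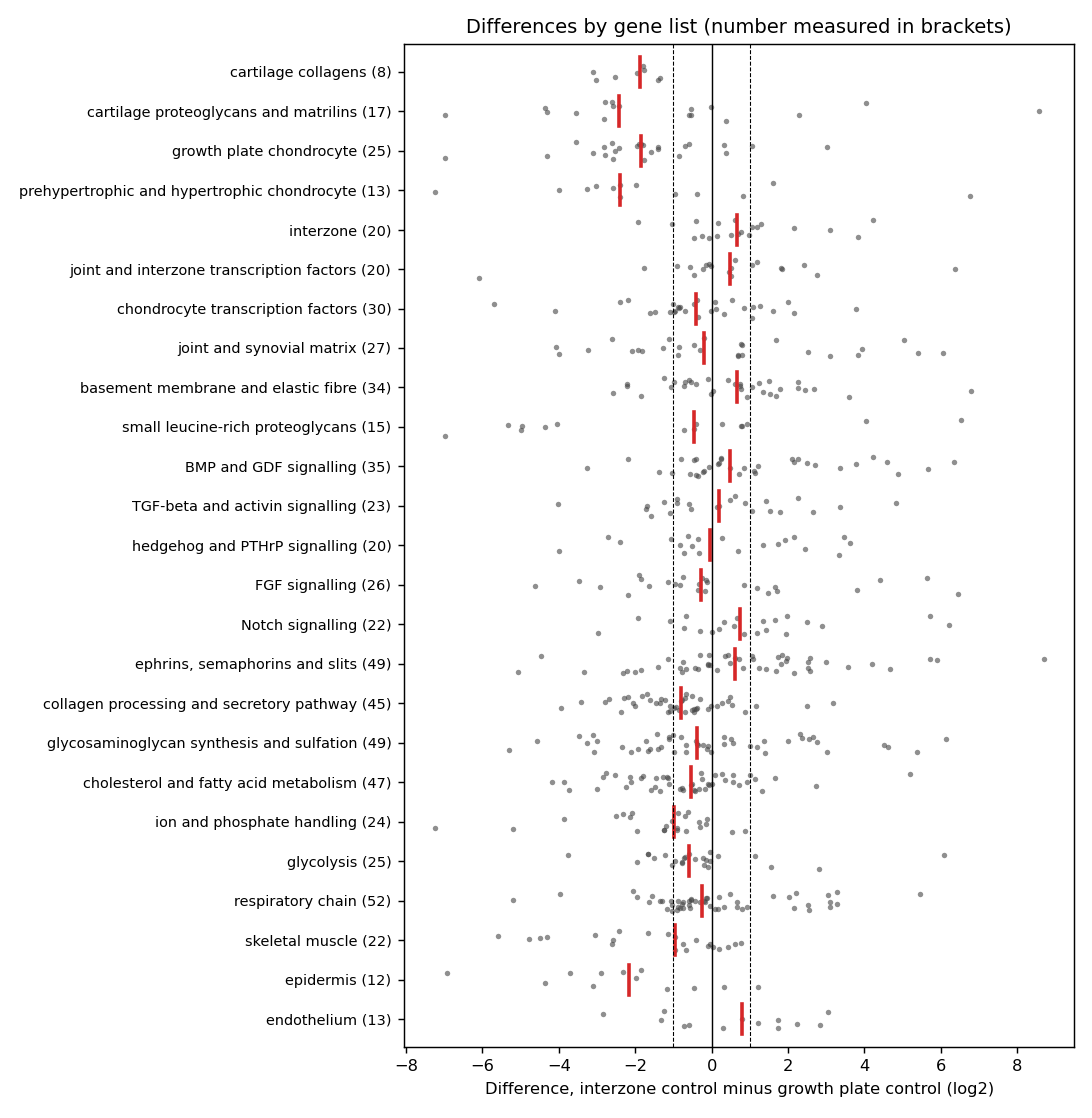
Each dot is a measured gene, placed at its difference between interzone control and growth plate control (log2, x axis), with a red bar at the list median and dashed lines at 2-fold. The cartilage collagens lie wholly to the left, near -1.87, while the interzone, Notch, and basement membrane and elastic fibre lists have medians right of 0 and wide spreads.

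The interzone list was shifted the other way, with fewer members past 2-fold. Of 20 measured interzone genes, 7 were at least 2-fold higher in interzone and 2 in growth plate, against 25.2% and 23.5% of all genes. In the second-dimmest of the 4 brightness groups the shares were 39.5% and 19.2%. A further 3 list members were well above background in interzone only, where 1374 of all genes were, beside 254 in growth plate only. The median difference of the list was 0.66, and it turned to -0.56 with the array-median scaling. Has2, which makes hyaluronan, read -1.07 in interzone and -4.89 in growth plate (14.2-fold), and Vcan, a large hyaluronan-binding proteoglycan, 2.45 and -0.65 (8.57-fold), with all 3 of its measured probes in the same direction. Dcx, a microtubule protein also made by interzone cells, read -0.01 and -4.25 (18.8-fold). The Wnt-binding antagonist Sfrp2 read 3.51 and 2.22 (2.45-fold).

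Gdf6, a close relative of Gdf5 that is also needed in joints, was at least 28.1-fold higher in interzone, and the chemokine receptor Ackr3 at least 31.6-fold, since neither was well above background in growth plate. The 2 members on the growth plate side were the hyaluronan receptor Cd44 (-0.70 and 1.23), whose measured probes disagreed, and the BMP antagonist Nog (0.29 and 1.34). Nog and Cd44 thus went opposite to the list's name. The joint-associated Wnt genes stayed under 2-fold, with differences of 0.98 for Wnt9a, 0.16 for Wnt4 and -0.24 for Wnt16.

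**Figure D3:**
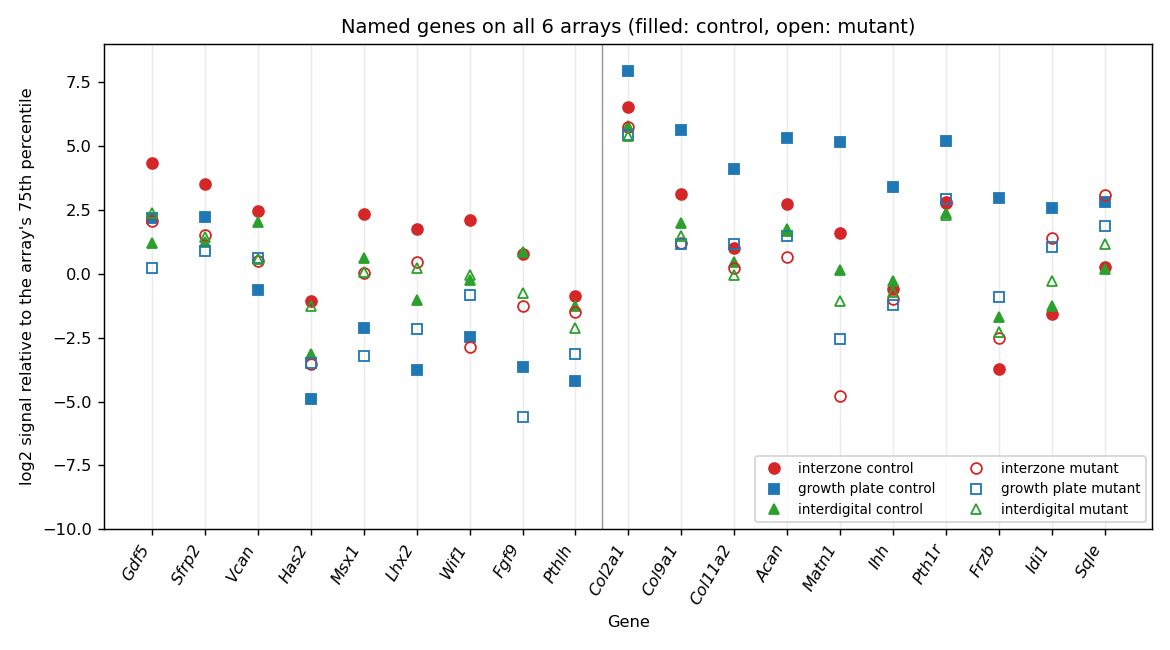
Level of each named gene (log2, relative to the array's 75th percentile) on all 6 arrays, with circles for interzone, squares for growth plate, triangles for interdigital tissue, filled symbols for control and open for mutant. The filled square stands above every other symbol for Col2a1, Col9a1, Col11a2, Acan, Matn1, Ihh, Pth1r, Frzb and Idi1, and the filled circle above the other symbols for Gdf5, Sfrp2, Vcan, Has2, Msx1, Lhx2, Wif1 and Pthlh.

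Transcription factors of the joint were higher in interzone more often than lower. Of 20 measured, 7 were at least 2-fold higher in interzone and 2 in growth plate, against 25.2% and 23.5% of all genes. In the second-dimmest of the 4 brightness groups the shares were 39.5% and 19.2%. The list median was 0.49, or -0.73 with the array-median scaling, and it also turned negative with a stricter filter on dim probes. Barx1, a homeobox gene of forming joints, was well above background in interzone only and at least 241-fold higher there. Erg, an ETS factor of articular chondrocytes, read 2.81 and 1.75, and Osr1, an odd-skipped factor of joint mesenchyme, 0.73 and -0.45; both had another probe in the same direction and both changed sign with the array-median scaling. The forkhead genes Foxc1 and Foxc2 read 0.03 and -1.92 in interzone against -1.78 and -4.67 in growth plate. Creb5, a factor of articular cartilage, read -3.33 and -5.75, and the SOX factor Sox4 -1.42 and -3.26.

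Jun, an AP-1 subunit, read 2.23 in interzone and -4.14 in growth plate, with the growth plate control array lowest and the interzone control array highest of the 6. The exceptions were Ebf1 and Pitx1. Ebf1, a factor of stromal cells, stood at -4.63 in interzone and 1.47 in growth plate, with its other measured probe in the same direction. Pitx1, which specifies hindlimb, read -1.26 and 0.50. The interzone control array was the lowest of the 6 for Ebf1. Osr2 and Lmx1b stayed under 2-fold, at 0.62 and 0.51.

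The central chondrocyte factors Sox9 and Sox6 stayed under 2-fold. Sox9, the factor required for cartilage formation, read 2.42 in interzone and 3.11 in growth plate, a difference of -0.69 with both other probes in the same direction. Its partner Sox6 differed by -0.85, with 1 of its 3 other probes in the same direction. Sox5 differed by 1.05 at its brightest probe, while its other 2 measured probes went the opposite way. Runx2, which drives hypertrophy, differed by -0.38. Of 30 chondrocyte factors measured, 8 were at least 2-fold higher in growth plate and 7 in interzone, shares close to those of all genes.

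Larger differences were seen for forkhead and stress factors. Foxa2 and Foxa3, which act in hypertrophic differentiation, read -4.87 and -1.04 in interzone and 0.83 and 3.05 in growth plate. Atf4, a stress-response factor active in chondrocytes, read 2.61 and 4.79 (4.54-fold), and Sp7, the osterix gene, -0.81 and 1.58. On the interzone side were Gli2, an effector of hedgehog signalling (2.85 and 0.69), Pax9 (-2.60 and -6.38) and Dlx5 (-0.88 and -2.89).

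Limb mesenchyme factors passed 2-fold about as often as all genes did (25.2% and 23.5%). Of 34 measured, 9 were at least 2-fold higher in interzone and 8 in growth plate. Msx1, a homeobox gene of undifferentiated limb mesenchyme, read 2.35 in interzone and -2.11 in growth plate (22.0-fold, with another probe in the same direction), and Msx2 read -1.49 and -5.17. Lhx2 read 1.77 and -3.75, Emx2 2.95 and -0.25, and Tbx18 was at least 71.8-fold higher in interzone. The interzone control array was the highest of the 6 for Msx1, Msx2 and Lhx2. Shox2, which is needed for proximal limb cartilage, read -6.29 in interzone and 0.52 in growth plate, and Irx3 -5.02 and 0.63. Of 10 posterior Hox genes, which pattern the limb along its length, 2 were higher in each tissue, with Hoxd10 at 0.32 and -2.25 and Hoxc10 at 1.01 and 4.0, although the other measured probe of Hoxc10 went the opposite way, while the autopod gene Hoxd13 differed by 0.51.

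Matrix outside the cartilage set was mixed. Of 27 joint and synovial matrix genes, 8 were higher in interzone and 9 in growth plate. The fibulin gene Fbln1 read 1.58 and -4.47, the tenascin gene Tnn 1.29 and -2.65, and Cilp, a cartilage intermediate layer protein, was at least 165-fold higher in interzone. Tenascin-X (Tnxb) and thrombospondin Thbs4 were higher in growth plate, at -0.20 and -0.10 in interzone against 3.04 and 3.90 in growth plate. Of 20 other collagens, 6 were higher in interzone and 4 in growth plate. Among them Col14a1 (0.31 and -4.79) and Col5a3 (0.06 and -3.03) were higher in interzone, each with another probe agreeing in direction, while the fibrous collagen genes Col1a1 and Col3a1 both differed by -0.11.

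Basement membrane and elastic fibre genes, taken as 1 list, were more often higher in interzone. Of 34 basement membrane and elastic fibre genes, 13 were higher in interzone and 6 in growth plate, against 25.2% and 23.5% of all genes. The list median was 0.68, or -0.54 with the array-median scaling. Of the 13, 6 had the growth plate control array lowest of the 6 arrays by 2-fold or more. In the mutant pair 1 of the 13 was at least 2-fold higher in interzone and 2 in growth plate. Of 9 members past 2-fold with other measured probes, 5 had all of them in the same direction. The microfibril genes Fbn1, Mfap2 and Mfap4 read 1.84, 3.65 and 4.80 in interzone against 0.48, 1.38 and 2.53 in growth plate, and the cross-linking enzymes Lox and Loxl1 read 2.18 and 2.55 against -1.41 and -4.25. Ltbp3, which holds latent TGF-beta in the matrix, was 3.45-fold higher. The growth plate side held Fn1, the fibronectin gene (2.30 and 4.51), whose measured probes disagreed, and the basement membrane genes Nid2 (1.94 and 4.52) and Lama4 (3.76 and 4.83), the last with all 3 probes in the same direction.

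Small leucine-rich proteoglycans, which bind and space collagen fibrils, were mostly on the growth plate side where they differed. Of 15, 6 were higher there and 2 in interzone, against 23.5% and 25.2% of all genes. In the mutant pair 3 of the 6 were at least 2-fold higher in growth plate and 3 in interzone. Of 1 member past 2-fold with other measured probes, 0 had all of them in the same direction. Dcn, the decorin gene, read 0.23 in interzone and 5.19 in growth plate, and 4.78, 4.61 and 5.74 in interdigital control, interzone mutant and growth plate mutant tissue. Here the interzone control array was the one apart from the rest. Lum and Omd, the lumican and osteomodulin genes, read -0.88 and -1.25 in interzone against 3.17 and 4.09 in growth plate. Podn went the other way, at 2.18 and -4.34.

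Proteases and cell-matrix receptors were also divided. Of 39 proteases and inhibitors, 12 were higher in interzone and 7 in growth plate, and 5 more were read in interzone only. The proteoglycan-cleaving genes Adamts1 and Adamts15 read -0.52 and 2.08 in interzone against -5.10 and -5.39, and the inhibitor Timp3 2.29 against -3.24. The membrane proteases Mmp16 and Adam12 were at least 122-fold and 56.7-fold higher in interzone. Adamts5, the main aggrecanase of cartilage, read 0.97 and 2.91, higher in growth plate. Of 32 matrix receptors, 9 were higher in interzone and 7 in growth plate. Among these, the chondrocyte collagen receptor Itga10 was 3.76-fold higher in growth plate, and the fibroblast collagen receptors Itga11 and Ddr2 read 1.91 and 0.71 in interzone against -0.79 and -4.07.

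The hedgehog and parathyroid hormone-related protein genes lay on both sides, with the signals of maturation in growth plate. Ihh, the Indian hedgehog ligand made by prehypertrophic chondrocytes, read -0.60 in interzone and 3.40 in growth plate (16.0-fold), and the receptor Pth1r 2.79 and 5.19 (5.30-fold). Both had another probe in the same direction. Pthlh, the ligand for that receptor, stood on the interzone side at -0.87 and -4.20, measured at a single probe. The hedgehog target Gli1 was 2.07-fold higher in growth plate, whereas the target Ptch1 differed by 0.26.

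Several hedgehog co-receptors and inhibitors were higher in interzone. The co-receptors Gas1 and Boc read 3.83 and 2.62 in interzone against 2.09 and 1.29 in growth plate, while Cdon, of the same family, differed by 0.68. Disp1, which releases the ligand, read 3.18 and 0.73, the ligand-binding inhibitor Hhip -1.12 and -4.75, and Sufu, which restrains the GLI factors, 0.82 and -2.66. Kif7, a ciliary regulator of the pathway, was on the other side at -0.56 and 2.16. The forkhead gene Foxf2 was at least 212-fold higher in interzone. Over the list, 8 of 20 genes were higher in interzone and 4 in growth plate, and all 5 of those with other measured probes had them in the same direction.

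BMP and GDF genes leaned to interzone. Of 35 measured, 15 were at least 2-fold higher in interzone and 4 in growth plate, against 25.2% and 23.5% of all genes. In the second-dimmest of the 4 brightness groups the shares were 39.5% and 19.2%. The list median was 0.49, or -0.73 with the array-median scaling, and it also turned negative with a stricter filter on dim probes. The ligand genes Bmp2 and Bmp3 read -1.0 and -0.74 in interzone against -5.23 and -5.63 in growth plate, and the receptor gene Bmpr1a 0.06 against -5.61. Bmpr1b, the receptor that Gdf5 signals through, was at least 32.6-fold higher in interzone. The extracellular modulators Chrdl2 (0.49 and -5.87) and Bmper (-0.94 and -4.73) were on the same side, and the BMP target Id1 was 2.15-fold higher there but changed sign with the array-median scaling. Bmp6, a ligand made by maturing chondrocytes, read -1.38 and 1.89, higher in growth plate at its brightest probe and not at its other probe. Of the 15 interzone-higher genes, 7 had the growth plate control array lowest of the 6. In the mutant pair 6 of the 15 were at least 2-fold higher in interzone and 5 in growth plate. Of 4 members past 2-fold with other measured probes, 2 had all of them in the same direction.

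TGF-beta ligands differed toward interzone while other members lay on both sides. Of 23 measured, 8 were higher in interzone and 6 in growth plate. The ligand gene Tgfb3 read 2.29 in interzone and -1.08 in growth plate, and the receptor gene Tgfbr2 2.42 and -2.42, with another probe in the same direction and the growth plate control array lowest of the 6 for both. Tgfb1 read -2.11 and -3.52. The ligand genes Tgfb2 and Inhba were at least 38.6-fold and 185-fold higher in interzone, since neither was well above background in growth plate. On the growth plate side stood Ccn2, a matrix-associated growth factor of cartilage (3.76 and 5.35), the shared mediator Smad4 (2.43 and 4.14), the activin subunit Inhbb (-1.54 and -0.45, with its probes in disagreement) and the activin receptor Acvr2b (-1.73 and 2.30).

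Secreted Wnt antagonists lay on both sides, with 4 of 14 higher in interzone and 2 in growth plate. Wif1, which binds Wnt ligands, read 2.10 in interzone and -2.46 in growth plate, and Sfrp1 read 1.42 and -2.82, with another probe in the same direction. Frzb, a frizzled-related antagonist known from cartilage, read -3.74 in interzone and 2.97 in growth plate (104-fold), and Sfrp5 was at least 591-fold higher in growth plate. Within the frizzled-related family, Sfrp1 and Sfrp2 were thus higher in interzone, and Frzb and Sfrp5 in growth plate. Of 44 Wnt ligands, receptors and effectors, 8 were higher in interzone and 9 in growth plate, both shares below those of all genes, and Axin2, a target of the pathway, was at least 19.1-fold higher in interzone. The beta-catenin gene Ctnnb1 differed by -0.82.

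FGF genes lay evenly on both sides, with 8 of 26 higher in interzone and 8 in growth plate. The ligand genes Fgf9 (0.78 and -3.63) and Fgf18 (1.21 and -4.43) were higher in interzone. Fgf2 read -1.86 and -3.53, and Fgf10 was at least 72.6-fold higher there. Fgfr3, the receptor that restrains chondrocyte proliferation, read 0.57 and 2.41 (3.57-fold higher in growth plate, with 1 of 2 other probes in that direction), and Fgfr2 read 2.84 and 3.98 at its brightest probe and turned to the interzone side as a mean over its probes. Of the feedback genes, Dusp6 was higher in growth plate (-2.56 and 0.91) and Spry2 in interzone (-1.78 and -5.58).

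Notch, retinoid and guidance genes leaned to interzone, each with a median that changed sign under the array-median scaling. Over all genes 25.2% were higher in interzone and 23.5% in growth plate, and in the second-dimmest of the 4 brightness groups 39.5% and 19.2%. Of 22 Notch genes, 10 were higher in interzone and 3 in growth plate (median 0.75), among them the ligand Jag1 (0.88 and -4.85) and the target Hes1 (1.70 and -4.52). The non-canonical ligand Dlk1 was 3.79-fold higher in growth plate. Of 16 retinoid genes, 6 were higher in interzone and 3 in growth plate, with the receptor Rarb at -0.38 and -5.07 and another of its probes in the same direction. Of 49 ephrin, semaphorin and slit genes, 22 were higher in interzone and 9 in growth plate, and 11 of the former had the growth plate control array lowest of the 6. The receptor Epha7 read 2.85 and -2.87, Slit2 0.81 and -1.76, and Slit3, on the other side, -0.20 and 2.12.

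Genes of collagen processing and secretion that passed 2-fold were mostly higher in growth plate. Of 45 genes of collagen processing and secretion, 19 were at least 2-fold higher in growth plate and 3 in interzone (median -0.80; -2.02 to -0.30 over the alternative scalings), and 23 stayed under 2-fold. Among the brightest genes of the array 31.0% were higher in growth plate and 7.36% in interzone, with a median of -0.58. The prolyl hydroxylase gene P4ha1 read 3.12 and 4.22 (2.15-fold), and P4ha3 was at least 448-fold higher in growth plate. The collagen galactosyltransferase gene Colgalt2 read -2.09 and 1.85, and Sar1a, a GTPase of the vesicles that leave the endoplasmic reticulum, 1.39 and 3.44, each with another probe in the same direction. The chaperone genes Hspa5 and Serpinh1, which fold secreted proteins and collagen, stayed under 2-fold at -0.51 and -0.94.

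Glycosaminoglycan genes lay on both sides, at 18 of 49 higher in growth plate and 14 in interzone. Chondroitin sulfate genes were divided too. The sulfotransferase Chst11 read 0.98 and 4.24, with 1 of 2 other probes agreeing, Chst15 0.66 and 3.66, and Ugdh, which makes the glucuronic acid precursor, 3.79 and 5.10. Csgalnact2, which starts the chondroitin chain, was on the other side at -0.57 and -5.08. The heparan sulfotransferase gene Hs2st1 read -0.58 and -5.95, higher in interzone, and was as low on the interzone mutant array (-5.97).

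Cholesterol and fatty acid genes that passed 2-fold were more often higher in growth plate. Of 47 cholesterol and fatty acid genes, 20 were at least 2-fold higher in growth plate and 6 in interzone, against 23.5% and 25.2% of all genes. In the second-brightest of the 4 brightness groups the shares were 29.7% and 23.3%, with a median of -0.18. In the brightest group they were 31.0% and 7.36%, with a median of -0.58. The list median was -0.54 (-1.76 to -0.21 over the alternative scalings). Scalings that shift every difference by -1.22 or 0.33 could not turn that sign. Early in the pathway, the synthase gene Hmgcs1 read 2.07 in interzone and 3.53 in growth plate (2.76-fold), with another probe in the same direction. Idi1, which makes an isoprene unit, read -1.59 and 2.59 (18.1-fold), and Sqle, the squalene epoxidase, 0.27 and 2.80 (5.78-fold). The later enzymes Msmo1 and Nsdhl read -2.19 and -0.89 against 1.68 and 2.11. The other arrays did not follow tissue: the interzone mutant array read 3.07 for Sqle and 0.91 for Msmo1, and the interdigital control array 0.20 and -2.21. Nsdhl had all 3 of its measured probes in that direction, but of 13 list members past 2-fold with other probes only 4 had all of them agreeing. Insig1, which restrains the pathway, and the desaturase Scd1 were on the interzone side, at 0.24 and -0.16 against -1.43 and -5.35, and the other probe of Insig1 went the opposite way.

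Promoter sequence is shown for members that stood out together, to set the letters before their starts beside the values: 3 sterol genes (Idi1, Hmgcs1 and Nsdhl), the cartilage gene Col11a2 and the interzone-higher gene Vcan. Each line gives the 150 bases directly before a RefSeq start in the build GRCm38.p6, 5′ to 3′ on the gene's strand, and capitals mark any of the motifs CCAAT (found in 4 of the 5), TATAAA (in Col11a2) and AACAAT (in none), on either strand. The same window of the cartilage gene Matn3 was also searched, held none of these motifs and is not printed.
Idi1, chr13:8885456-8885605, plus strand: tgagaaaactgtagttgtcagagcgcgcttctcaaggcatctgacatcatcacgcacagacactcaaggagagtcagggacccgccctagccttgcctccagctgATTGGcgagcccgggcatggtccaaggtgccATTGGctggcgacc
Hmgcs1, chr13:119690201-119690350, plus strand: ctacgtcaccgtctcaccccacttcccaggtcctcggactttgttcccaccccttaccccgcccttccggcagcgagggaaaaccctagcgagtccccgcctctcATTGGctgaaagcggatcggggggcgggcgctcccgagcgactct
Nsdhl, chrX:72918371-72918520, plus strand: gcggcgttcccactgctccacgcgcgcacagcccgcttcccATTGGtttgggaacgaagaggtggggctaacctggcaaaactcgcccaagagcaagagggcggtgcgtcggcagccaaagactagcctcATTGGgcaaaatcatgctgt
Col11a2, chr17:34038988-34039137, plus strand: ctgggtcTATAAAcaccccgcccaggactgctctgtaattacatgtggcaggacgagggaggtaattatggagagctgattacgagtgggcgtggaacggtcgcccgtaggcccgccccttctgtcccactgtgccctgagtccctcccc
Vcan, chr13:89742513-89742662, minus strand: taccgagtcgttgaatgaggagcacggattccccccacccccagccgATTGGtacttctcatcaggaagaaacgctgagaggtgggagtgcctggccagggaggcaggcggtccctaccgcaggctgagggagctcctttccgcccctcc

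The CCAAT letters, the core of the box bound by nuclear factor Y, were in the 250 bases before the start of 22 of 35 cholesterol and fatty acid genes with a promoter in the table (62.9%), 7 of 20 growth plate chondrocyte genes (35%), 6 of 14 interzone genes (42.9%) and 37.5% of 27025 genes. TATAAA was in 2 of 35 cholesterol and fatty acid genes, 3 of 20 growth plate chondrocyte genes, 4 of 14 interzone genes and 14.3% of all genes. AACAAT, letters that SOX factors bind, was in 3 of 20 growth plate chondrocyte genes, none of 6 cartilage collagen genes and 10.9% of all genes. Each motif was searched on its own on both strands, so that matches of different motifs can overlap at their ends. A match describes the letters only, and no test was made.

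Ion and phosphate handling also stood on the growth plate side, with 12 of 24 genes at least 2-fold higher there and none in interzone (median -0.98), against 23.5% and 25.2% of all genes. Of 2 members past 2-fold with other measured probes, 0 had all of them in the same direction. The mineralization phosphatases Alpl and Phospho1 read -6.88 and -1.56 in interzone against 0.37 and 2.29 in growth plate. S100a1, a calcium-binding protein of chondrocytes, read 3.17 and 5.30, and the calcium channel gene Trpv4 0.99 and 2.04. Ank, which moves pyrophosphate out of the cell and opposes mineral, was well above background in interzone only, at least 25.4-fold higher there.

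Energy metabolism genes lay on both sides, near the shares of all genes. Of 25 glycolysis genes, 7 were higher in growth plate and 4 in interzone (median -0.58). Ldha, which makes lactate, read 3.28 and 4.79 (2.84-fold), Pfkp, a phosphofructokinase, 1.93 and 3.89, each with every other probe in the same direction, and the glucose transporter Slc2a1 0.32 and 1.98. Hk1, a hexokinase, was 2.20-fold higher in interzone at its brightest probe, with all 4 other probes in the same direction, and changed sign with the array-median scaling. Of 52 respiratory chain genes, 12 were higher in each tissue, and 8 of the interzone-higher genes had the growth plate control array lowest of the 6. Of 31 genes of the citric acid cycle, 5 were higher in interzone and 6 in growth plate. Hypoxia response genes were divided in the same way, with 5 of 21 higher in interzone and 6 in growth plate. Of 30 serine, one-carbon and amino acid genes, 7 were higher in each tissue, and of 26 pentose phosphate and nucleotide genes, 6 were higher in interzone and 5 in growth plate.

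Cell cycle genes gave 10 of 34 higher in interzone, near the 25.2% of all genes, and 5 in growth plate. Their median of 0.41 turned to -0.81 with the array-median scaling and also turned negative with a stricter filter on dim probes. The kinase gene Cdk6 read 0.77 and -6.19 and the replication helicase gene Mcm7 2.27 and -2.62, while Cdkn1c, a cell cycle inhibitor of maturing chondrocytes, was 2.74-fold higher in growth plate. The proliferation marker Mki67 differed by -0.31. Of 23 immediate early and stress genes, 7 were higher in interzone and 3 in growth plate, and of 12 housekeeping genes, 1 and 2, with a median of -0.72.

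Genes of neighbouring limb tissues lay on both sides, beside 25.2% of all genes higher in interzone and 23.5% in growth plate. Of 15 tendon and ligament genes, 5 were higher in interzone and 4 in growth plate. The tendon factor Scx differed by -0.26, and Tnmd, a late tendon gene, read -1.21 and 1.15. Of 13 interdigital mesenchyme genes, 5 were higher in interzone and none in growth plate, and of 14 perichondrium and osteoblast genes, 4 were higher in each. IGF genes gave 5 of 21 higher in interzone and 2 in growth plate. Of the former, 4 were binding proteins, which hold the ligand outside the cell: Igfbp7 read 3.38 and 0.57, and Igfbp4 4.44 and 2.38. Of 24 chemokine, cytokine and PDGF genes, 6 were higher in each tissue, with the mesenchymal receptor Pdgfra at 4.04 and 2.04 and the receptor Pdgfrb at least 87.6-fold higher in interzone.

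**Figure D4:**
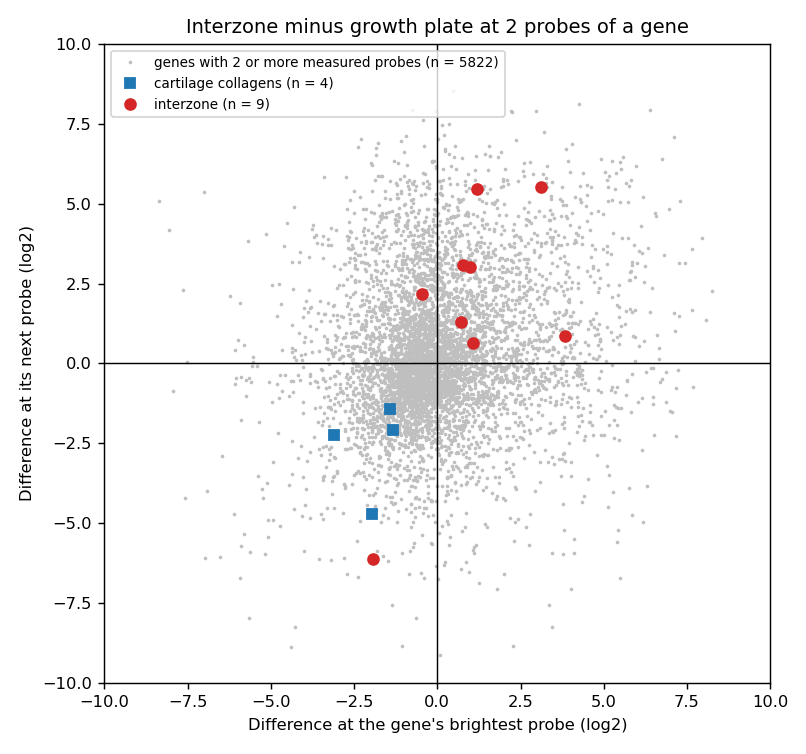
Difference between interzone control and growth plate control (log2) at each gene's brightest probe (x axis) and at its next probe (y axis), for 5822 genes with at least 2 probes measured on both arrays. The 4 cartilage collagens with another probe all lie in the lower left, and across all genes past 2-fold the next probe shared the direction in 59.1%.

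The mutant arrays of the same tissues share no array with the control pair and gave other differences. Across 15617 genes measured on all 4 arrays the correlation of the differences, over genes and not over samples, was -0.03. Of 3945 genes higher in control interzone, 976 (24.7%) were also at least 2-fold higher in mutant interzone, where 20.6% of all genes were, and 951 (24.1%) were higher in mutant growth plate, where 17.5% of all genes were. Of 3632 genes higher in control growth plate, 743 (20.5%) were also higher in mutant growth plate and 812 (22.4%) were higher in mutant interzone. The cartilage collagens had a median difference of 0.22 in the mutant pair, with none of 8 past 2-fold, and Col2a1 read 5.74 and 5.43 there. Gdf5 kept its direction, at 2.08 in mutant interzone and 0.21 in mutant growth plate. The skeletal muscle list, -0.96 in the control pair, had a median of 1.78 in the mutant pair, with 14 genes higher in mutant interzone. The mutant pair lay on different slides, so genotype, slide and array cannot be told apart.

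**Figure D5:**
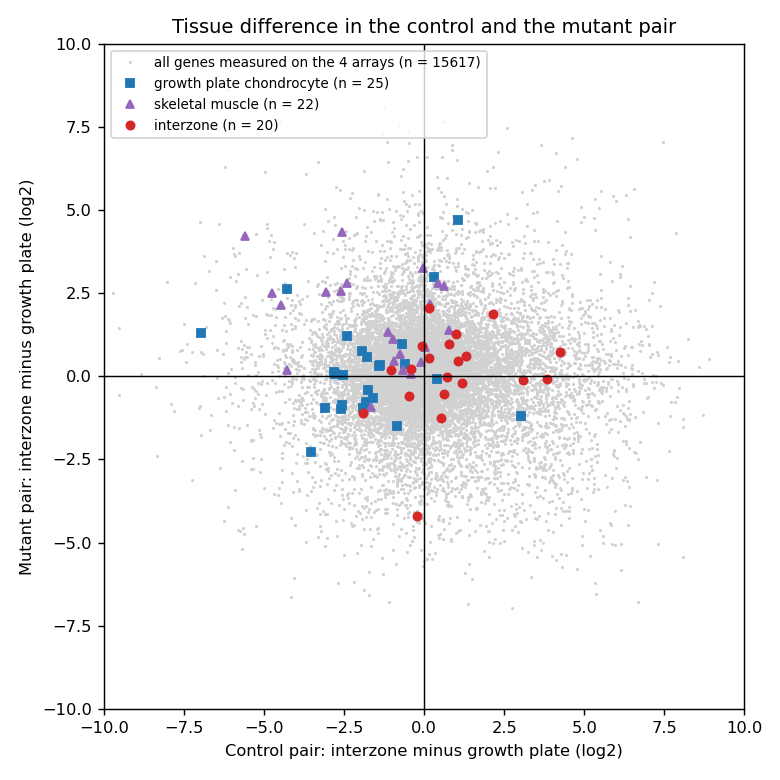
Tissue difference (interzone minus growth plate, log2) in the control pair on the x axis and in the mutant pair on the y axis, for 15617 genes measured on all 4 arrays. Growth plate chondrocyte genes spread along the left of the x axis around 0 on the y axis, and skeletal muscle genes lie mostly in the upper left.

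Over all genes, the largest differences came mostly from outside these lists. By the naming rule, the genes furthest toward interzone were Rnf187, a ubiquitin ligase gene, at 2.77 and -6.14, Sema3b, a secreted semaphorin, at 2.57 and -6.13, Matn2, and Snn at 1.84 and -6.40. On each of them the growth plate control array was the lowest of the 6. Mettl2, Ackr4, Bex1, Armcx1, Irf2bpl and Vwa2 followed, at 235-fold to 271-fold. Among genes with a bound, Tgif1, a corepressor in TGF-beta signalling, was at least 503-fold higher in interzone, Rmnd5b at least 501-fold and the heat shock factor Hsf2 at least 408-fold.

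The genes furthest toward growth plate were Atg10, an autophagy gene, at -6.53 and 3.56, 1700102P08Rik at -6.32 and 3.40, Smim5 at -6.56 and 2.99, and Septin4, a cytoskeletal GTPase gene, at -6.35 and 3.20. The growth plate control array was the highest of the 6 for all of them, and for Atg10, Smim5 and Septin4 the interzone control array was also the lowest. Hdc, Msantd2, Pf4, Lgals9, Ptgdr and Fam205c followed, at 313-fold to 460.2-fold. Pf4, a chemokine of platelets and their precursors, read -5.11 and 3.32. With a bound, Slc16a14, a transporter gene, was at least 1761-fold higher in growth plate, beside Panx3 and Cpa3. All of these had at most 1 other measured probe.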

How the data were processed

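RNA of laser-captured control interzone and control growth plate was read on 1 Agilent whole mouse genome array each. Per the labels' protocols, cDNA was amplified by PCR and 250 ng was labelled with Cy3. Per the file headers, the deposited scanner intensities come from Agilent Feature Extraction 9.5.1.1, which subtracted the background. The authors' deposited value table holds the ratio of that signal to each array's median, a scaling found by setting the table against the scanner values.

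A level is the log2 of a spot's processed signal after subtracting, on that scale, the 75th percentile of all non-control spots without outlier flags on its array. Spots of a probe were averaged, and the probe with the highest mean level stood for its gene. Of 41174 probes, 22951 were named by RefSeq accession, 6659 by symbol, 3109 by an older symbol, and 8455 were unnamed and left out. A bound compares the bright level with the higher of the lowest signal among probes well above background and the dim probe's own.

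Genes named are the markers, up to 5 per direction and list, bounds, list-defining members, and the 10 largest (3 bounds) per direction over all genes. Further members of known role were named after their values were seen. Members and lists were chosen with earlier results of these data known. Median signals of 349 and 103 units limit precision on the growth plate array. Alternatives were normexp (limma 3.58.1, R 4.3.3), other scalings, filters, probe rules and a 4-fold threshold. Calculations used Python 3.11.15 and were tested on simulated data. Promoters are from RefSeq. A few list members are not reported here.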

Additional observations from a re-analysis of the deposited data

Results flagged for a closer look

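For 17 named genes the tissue difference (interzone minus growth plate, log2) was past 4-fold in the control pair and past 4-fold the opposite way in the mutant pair. At 2-fold each way there were 43, beside 185 named genes past 2-fold in the control pair. Over all genes, 24.1% of those higher in control interzone and 22.4% of those higher in control growth plate were past 2-fold the opposite way. The share over all genes at 4-fold was not counted. With 1 array in each group the difference between the pairs was not tested, and genotype cannot be told apart from slide or array.

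Signalling genes were among them, and how many fall in each class depends on which genes were named. Bmp2, a BMP ligand, went from 4.23 in the control pair to -3.35 in the mutant pair, and Sostdc1, a BMP and Wnt antagonist, from 4.59 to -3.51. Wif1 went from 4.56 to -2.05, and Fzd9, a Wnt receptor, from -4.81 to 3.59. The FGF-responsive factor Etv5 went from 6.44 to -3.90, the Notch target Hes1 from 6.22 to -3.10, Epha7 from 5.72 to -3.34 and the scavenging chemokine receptor Ackr4 from 8.07 to -5.43.

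Among transcription and matrix genes, Sall1, a zinc finger factor of the limb, went from 5.05 to -2.55 and the heparan sulfotransferase Hs2st1 from 5.37 to -6.55. Matn3 went from -4.30 to 2.62, and Pcolce2, an enhancer of procollagen processing, from -4.07 to 3.56.

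The muscle genes Myog, Mylpf and Actc1 were higher in control growth plate (-5.60, -4.77 and -4.49) and in mutant interzone (4.23, 2.52 and 2.14). The leukocyte gene Laptm5 went from -7.03 to 4.65, and 1700102P08Rik from -9.72 to 2.50.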

How the results depend on the processing

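The genes higher in interzone and in growth plate numbered 4117 and 3828 as reported, 2153 and 9744 with the deposited table's array-median scaling, 979 and 2245 with the stricter filter on dim probes, and 2402 and 1590 at 4-fold. The other 14 counts stayed within 1.5 times. The 5 list medians past 2-fold kept their sign under every setting run, whereas 33 of the 43 under 2-fold changed sign under at least 1 setting. Those 5 all lay on the growth plate side, and the array-median scaling moves such medians further in that direction. Of 185 named genes past 2-fold, 177 kept their direction under every setting run. With the array-median scaling, which lowers every difference by 1.22, Erg turned to -0.16, Osr1 to -0.041, Sox5 to -0.17, Id1 to -0.12 and Hk1 to -0.083. As a mean over all measured probes, Sox5 turned to -0.94, Insig1 to -0.79, Fgfr2 to 1.37 and Inhbb to 0.48, since their probes differ in direction. No paired analysis was possible because each group has 1 array and the comparison comes from no test. Signal limits the growth plate side most: 72.3% of its spots were well above background, and the next probe shared the direction of a 2-fold difference in 56.6% of the dimmest genes with several probes, against 65.9% of the brightest.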
